A study of Rattus norvegicus with 11 samples.

Results

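The expression profile of the rat spinal cord at 6 M (6 months) after spinal cord injury (SCI) was compared with that at 1 M (1 month). Members of the comparison were all genes with FPKM (fragments per kilobase of transcript, scaled to library size) over 1 in at least 1 of the 5 libraries, which gave 14408 genes of the 30443 in the tables, 13504 protein-coding and 904 lncRNA. Every library came from female Sprague-Dawley rats, aged 12 to 14 weeks by their labels, that received a moderate contusion at the ninth thoracic vertebra, and held cord tissue of the epicenter pooled from 3 rats. There were 2 libraries at 6 M and 3 at 1 M, all from injured animals, and a further 6 M pool that the authors set aside was not analysed here. The fit held no control library. For orientation, levels are also given in the 3 libraries at 3 M and in the 3 libraries of the sham controls, which had a laminectomy without contusion and were collected at the latest time point. Both 6 M libraries were processed in batch 4, the 1 M replicates 1 and 2 in batch 2 and the 1 M replicate 3 in batch 3. Batch and time after injury, and the age of the rats at collection, can therefore not be told apart in any result below. Library totals were 21430564 and 29565174 counts at 6 M, against 49986531, 25715030 and 22925109 counts at 1 M, so that 3 counts of a gene stood for 0.0606 to 0.133 CPM (counts scaled to library size with factors from TMM, the trimmed mean of M values). This floor covers counting error only.

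After a contusion, the cavity and its border hold phagocytes that take up myelin debris, which is rich in cholesterol. These cells express lysosomal proteases, lipid carriers and scavenger receptors, a program that is also known from microglia in neurodegeneration. Around the lesion, astrocytes and fibroblasts of the meninges build a border, vessels regrow, ependymal cells line the central canal with motile cilia, and Schwann cells from the nerve roots can enter the cord and myelinate axons there.

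In the 5 libraries, edgeR's quasi-likelihood test gave an adjusted p under 0.05 for 473 genes (3.28% of those tested), of which 292 (2.03%) were higher and 181 (1.26%) lower at 6 M. Since bulk tissue was sequenced, fewer cells of a type and less RNA per cell cannot be told apart. The log2 fold changes (6 M over 1 M) of these genes ran from -4.94 to 3.05 with a median size of 1.13, and the median over all tested genes was 0.00. A fold change over 2 was seen in 188 of the genes that rose and 93 of those that fell, and a fold change over 4 in 17 and 19. No gene reached the stricter definition of a DEG, an adjusted p under 0.01 with a fold change over 2 (0% of the tested genes), since the smallest adjusted p was 0.0175. At an unadjusted p under 0.05 there were 3088 genes, 1665 of them higher (11.6%) and 1423 lower (9.88%). DESeq2's Wald test called 867 genes higher (6.02%) and 756 lower (5.25%) at an adjusted p under 0.05, and 442 DEGs. Counts of list members by these measures are to be read against these shares. With the 3 M libraries added to the fit to estimate the spread, 1023 genes were higher (7.1%) and 688 lower (4.78%) at an adjusted p under 0.05, among them 471 of the 473 with the same direction. The 6 M libraries lay above all 1 M libraries in 3160 genes (21.9%) and below them in 2707 (18.8%), and all 473 genes were among these.

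The calls rested on 2 libraries in particular. Without 1 M replicate 2 or without 6 M replicate 2, edgeR gave 0 genes at an adjusted p under 0.05, with 1915 and 1647 genes at an unadjusted p under 0.05. No called gene turned its direction in any of 17 alternative analyses, and 176 of the 473 kept the call in each of the other 15. The libraries of all 473 genes did not overlap between the groups, so a reversal was unlikely from the start and the kept directions add no support. That the calls rested on these 2 libraries holds for every gene named below as risen or fallen. Log2 fold changes are given with their standard error (SE) from edgeR, and single genes were judged at an adjusted p under 0.05. Lost calls are counted for some genes only, and a gene without such a count is not a firmer call.

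**Figure D1:**
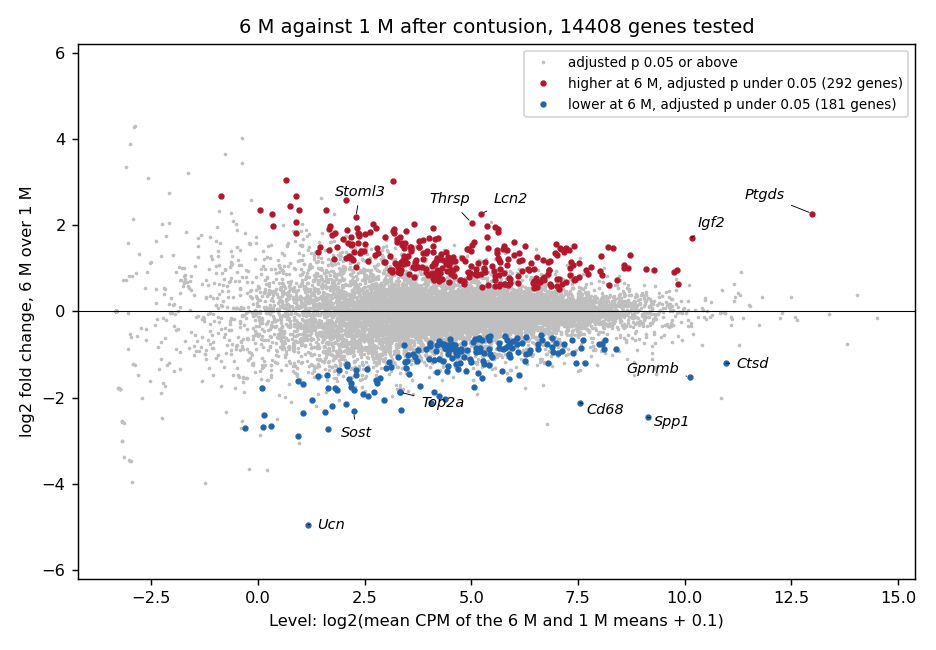
Log2 fold change of 6 M over 1 M (y axis) against level (x axis, log2 of the mean CPM plus 0.1) for 14408 genes, with the 292 genes higher at 6 M in red, the 181 lower in blue and the rest in grey. Ucn had the lowest log2 fold change of the called genes at -4.94, and Ptgds stands at the right end of the genes that rose.

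Disease-associated microglia genes were the list with the most members that fell. Of the 22 disease-associated microglia genes tested, 8 fell and 0 rose, with a median log2 fold change of -0.82, and 15 were lower with the 3 M libraries in the fit. Spp1, the secreted phosphoprotein osteopontin, had 164 and 182 CPM at 6 M, against 1068, 789 and 987 CPM at 1 M. Its 6 M libraries were thus well below every 1 M library, and its log2 fold change of -2.45 ± 0.17 came with an adjusted p of 0.0175. Levels of Spp1 were 231, 355 and 159 CPM at 3 M and 200 to 229 CPM in the controls, so the 6 M libraries lay below the controls as well. Cd68, a glycoprotein of the endosomes and lysosomes of macrophages, had 62.6 and 76.7 CPM at 6 M, against 380, 287 and 244 CPM at 1 M (log2 fold change -2.12 ± 0.22, adjusted p = 0.023). In the controls it had 5.85 to 8.30 CPM, so that both 6 M libraries lay far above control.

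Gpnmb, a membrane glycoprotein of phagocytes with a high lysosomal load, had 533 and 623 CPM at 6 M, against 2114, 1587 and 1280 CPM at 1 M (log2 fold change -1.52 ± 0.23, adjusted p = 0.0327). In the controls it had 22 to 25.9 CPM. Ctsd, the lysosomal aspartic protease cathepsin D, had 1110 and 1320 CPM at 6 M, against 3417, 2761 and 2221 CPM at 1 M (log2 fold change -1.20 ± 0.21, adjusted p = 0.0414). No library of one group entered the range of the other for either gene. The other disease-associated genes that fell were Igf1, insulin-like growth factor 1 (-1.55 ± 0.22), Clec7a, the beta-glucan receptor Dectin-1 (-1.01 ± 0.14), Lpl, lipoprotein lipase (-0.84 ± 0.13), and Axl, a receptor for apoptotic cells (-0.75 ± 0.12). Trem2, the lipid receptor upstream of this program, had 81.4 and 105 CPM at 6 M, against 194, 163 and 142 CPM at 1 M, and its adjusted p was 0.0613. Apoe, the apolipoprotein that carries cholesterol between glia and neurons, had 9696 and 11674 CPM at 6 M and 14388 to 21970 CPM at 1 M (adjusted p = 0.114).

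Of 17 LXR and lipid efflux genes, 6 fell and 0 rose, with a median of -0.58. The list holds sterol export genes and also genes of other lipid handling. Lpl, named above, was among the 6. Apoc1, a small apolipoprotein, had 4.20 and 4.30 CPM at 6 M, against 17.5, 13.2 and 16.2 CPM at 1 M (-1.88 ± 0.19, adjusted p = 0.023). Fabp4, a fatty acid carrier of macrophages and fat cells, had 3.67 and 3.24 CPM at 6 M, against 24.1, 16.5 and 9.90 CPM at 1 M (-2.29 ± 0.39, adjusted p = 0.0411). The spread of Fabp4 at 1 M was wide, but its lowest 1 M library was still above both 6 M libraries. The cholesterol exporters Abca1 (-0.66 ± 0.12) and Abcg1 (-0.75 ± 0.14) and the lipid droplet coat protein Plin2 (-0.75 ± 0.12) fell by less than 2-fold. Abca1 had 236 and 201 CPM at 6 M and 31.4 to 37.5 CPM in the controls, and its call was lost under 6 of the 17 alternatives.

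Among 31 lysosome genes, Ctsd was called and the median was -0.32, while 15 were lower at an unadjusted p under 0.05 and DESeq2 called 10 lower. Gaa, the acid glucosidase that degrades glycogen (-0.88 ± 0.16), and Gm2a, the activator of ganglioside breakdown (-0.88 ± 0.17), were outside that list and fell as well. Of 8 phagocyte NADPH oxidase genes 2 fell, among them the subunit Ncf1 (-1.19 ± 0.15). Cybb, the catalytic subunit, had 62.0 and 76.0 CPM at 6 M and 80.1 to 95.9 CPM at 1 M (adjusted p = 0.19).

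Of 12 Fc receptor and Lilr genes, 2 fell and 0 rose, with a median of -0.41. Lilrb4, an inhibitory receptor of myeloid cells, had 37.8 and 35.4 CPM at 6 M, against 105, 105 and 93.1 CPM at 1 M (-1.47 ± 0.11, adjusted p = 0.0201). Other leukocyte genes outside that list fell as well. Itgb2, the common beta chain of the leukocyte integrins, had 62.3 and 72.3 CPM at 6 M, against 160, 154 and 149 CPM at 1 M (-1.20 ± 0.11, adjusted p = 0.023). For both Lilrb4 and Itgb2, replicates of a group lay close together and the groups were far apart. The alpha chains Itgal (-1.43 ± 0.15) and Itgam (-0.83 ± 0.11) fell too. Cd34, known from haematopoietic progenitors and vessels, had 28.7 and 30.3 CPM at 6 M, against 85.7, 89.2 and 86.9 CPM at 1 M (-1.56 ± 0.10, adjusted p = 0.0175). Siglec1, the sialic acid receptor of tissue macrophages, had 17.6 and 12.9 CPM at 6 M, against 65.5, 47.1 and 41.3 CPM at 1 M (-1.75 ± 0.24, adjusted p = 0.0289). Hk3, the hexokinase of leukocytes, had 6.02 and 6.31 CPM at 6 M, against 37.5, 19.9 and 23.6 CPM at 1 M (-2.13 ± 0.30, adjusted p = 0.0289).

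The leukocyte phosphatase Ptprc (-0.95 ± 0.16), the kinase Syk (-0.93 ± 0.13), the exchange factor Vav1 (-0.78 ± 0.12), the tetraspanin Cd53 (-0.88 ± 0.14) and the transcription factor Irf8 (-0.97 ± 0.14) also fell. Timd2, a receptor that takes up ferritin in the mouse, had 1.5 and 1.49 CPM at 6 M, against 6.52, 5.79 and 7.53 CPM at 1 M (-2.14 ± 0.24, adjusted p = 0.0247). Aif1, a general marker of microglia, had 141 and 148 CPM at 6 M and 154 to 222 CPM at 1 M (adjusted p = 0.303), and C1qa overlapped between groups. Of 12 homeostatic microglia genes, Slc2a5, a fructose transporter, fell (-0.64 ± 0.11) and Olfml3 rose (0.83 ± 0.15). The median of that list was -0.45, 11 of the 12 had a log2 fold change below 0, 7 were lower at an unadjusted p under 0.05, and DESeq2 called 5 lower and 1 higher. P2ry12, the purinergic receptor of surveying microglia, had 35 and 33.6 CPM at 6 M and 42.4 to 48.6 CPM at 1 M (adjusted p = 0.104). Over 19 macrophage genes, Cd68 and Itgam fell and Clec10a, a lectin of alternatively activated macrophages, rose to 33.1 and 33.8 CPM at 6 M, against 11.7, 17.6 and 12.7 CPM at 1 M (1.26 ± 0.20, adjusted p = 0.0356). The summed level of the macrophage genes was 1192 and 1386 CPM at 6 M, 1680 to 1985 CPM at 1 M and 339 to 486 CPM in the controls.

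**Figure D2:**
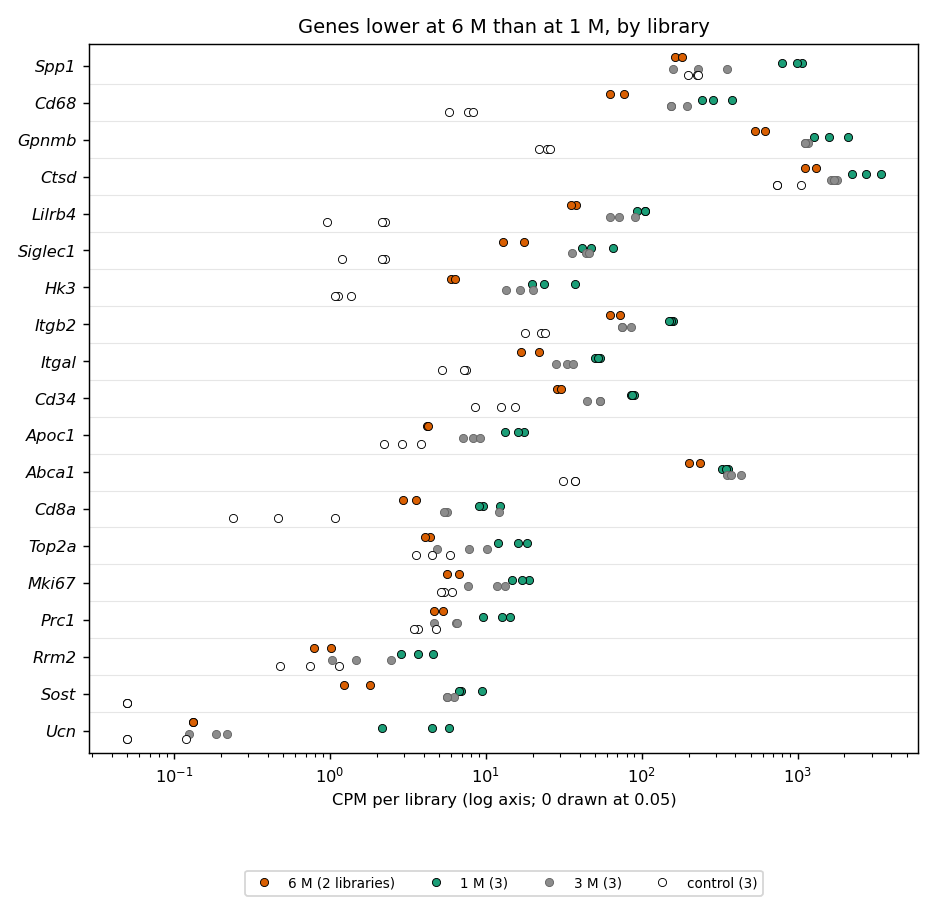
CPM in each library (log axis, 0 drawn at 0.05) of genes that were lower at 6 M, with 6 M in orange, 1 M in green, 3 M in grey and control in white. The orange points lie left of the green points in every row, and for Cd68 and Gpnmb they lie far right of the control points.

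Promoters of 2 of these genes are shown because the TPA-response element TGAGTCA, the recognition sequence of AP-1 factors, stands in both. Sequences are the 250 bases before the transcription start in RefSeq (assembly GRCr8), Cd68 at chr10:54882442-54882691 on the minus strand and Gpnmb at chr4:79340878-79341127 on the plus strand, with the element in capitals.
Cd68: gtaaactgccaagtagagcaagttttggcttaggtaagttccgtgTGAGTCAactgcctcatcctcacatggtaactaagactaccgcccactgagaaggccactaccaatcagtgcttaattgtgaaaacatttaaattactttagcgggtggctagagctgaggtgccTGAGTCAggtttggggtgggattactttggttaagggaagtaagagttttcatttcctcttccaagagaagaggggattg
Gpnmb: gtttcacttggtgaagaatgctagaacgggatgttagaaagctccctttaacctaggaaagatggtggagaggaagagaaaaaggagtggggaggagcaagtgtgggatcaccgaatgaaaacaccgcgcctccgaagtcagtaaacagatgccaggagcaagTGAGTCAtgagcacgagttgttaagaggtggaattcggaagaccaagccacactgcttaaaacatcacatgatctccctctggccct
In Cd68 the element starts 205 and 80 bases before the start site, and in Gpnmb 87 bases before it. Searched on both strands over 300 bases per gene (250 before the start and 50 after it), it was present in 4.53% of 27457 promoters. Only 16 of the 22 disease-associated genes matched the promoter table, under 80%, so no share over the list is given, and a match describes letters only.

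Lymphocyte genes differed in few members. Of 8 T cell genes, Cd8a and Cd8b, the chains of the coreceptor of cytotoxic T cells, fell. Cd8a had 2.96 and 3.57 CPM at 6 M, against 12.3, 9.67 and 9.08 CPM at 1 M (-1.66 ± 0.23, adjusted p = 0.0287). Its 3 M libraries spread between 5.41 and 12.1 CPM, and controls had at most 1.09 CPM. The other 6 T cell genes did not pass the test, and the median of the list was 0.55, opposite in sign to the calls. Blnk, an adaptor of the B cell receptor that macrophages also express, was the gene that fell of 8 B cell and plasma cell genes (-0.74 ± 0.13). Among 21 chemokine and chemokine receptor genes, Ccl19, which attracts T cells and dendritic cells, rose to 21.4 and 33.0 CPM at 6 M, against 7.57, 7.82 and 6.05 CPM at 1 M (1.93 ± 0.23, adjusted p = 0.0247). Lcn2, a siderophore-binding protein of astrocytes and neutrophils, rose to 62.5 and 60.7 CPM at 6 M, against 19.8, 8.27 and 10.3 CPM at 1 M (2.26 ± 0.34, adjusted p = 0.0327). It had 22.2 to 54.7 CPM at 3 M and at most 6.45 CPM in the controls. Of 8 granulocyte genes tested, Lcn2 was the only one that rose, the other 7 had a log2 fold change below 0, and the median was -0.80.

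Some genes of dividing cells fell at 6 M. Of 20 mitosis and cell cycle genes, 4 fell and 0 rose, the median was -0.95, and DESeq2 called 11 lower. Top2a, the topoisomerase that untangles sister chromatids, had 4.38 and 4.10 CPM at 6 M, against 18.4, 16.1 and 12.0 CPM at 1 M (-1.87 ± 0.23, adjusted p = 0.0247). Mki67, the antigen Ki-67 of cycling cells, had 6.73 and 5.68 CPM at 6 M, against 18.9, 17.1 and 14.8 CPM at 1 M (-1.45 ± 0.18, adjusted p = 0.0247). The controls had 3.56 to 5.90 CPM of Top2a and 5.13 to 6.07 CPM of Mki67, and the 6 M libraries lay in or near these ranges. The spindle midzone protein Prc1 (-1.28 ± 0.23) and the microtubule-binding Nusap1 (-1.22 ± 0.24) fell as well, with calls lost under 5 and 7 of the 17 alternatives. Of 25 DNA replication genes 2 fell, and the median was -0.17. Rrm2, a subunit of ribonucleotide reductase, had 1.02 and 0.793 CPM at 6 M, against 4.60, 3.69 and 2.86 CPM at 1 M (-2.05 ± 0.33), and Uhrf1, which helps to copy DNA methylation, fell by 1.33 ± 0.20 on the log2 scale.

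Outside the lists, the mitotic kinase Pbk had 0.575 and 0.297 CPM at 6 M, against 3.88, 3.28 and 2.37 CPM at 1 M (-2.90 ± 0.42, adjusted p = 0.0316). The spindle protein Troap (-2.34 ± 0.37), the mitotic regulator Cdca3 (-2.20 ± 0.39), the centromere protein Cenpw (-2.41 ± 0.41), the ubiquitin-conjugating enzyme Ube2t (-2.70 ± 0.44) and the phosphatase Cdkn3 (-1.68 ± 0.31) fell with it. Ube2t rested on few reads, with 0.133 and 0.231 CPM at 6 M. Over the alternatives, the log2 fold change of Top2a ran from -2.02 to -1.0.

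The promoters of the 4 mitosis genes that fell are printed because CCAAT, the box bound by NF-Y, recurs in all of them, in 3 of them together with TTTGAA, the cell cycle homology region. Capitals mark either motif, also where it is read on the opposite strand (as ATTGG and as TTCAAA). Top2a lies at chr10:84473094-84473343 on the minus strand, Mki67 at chr1:199952594-199952843 on the minus strand, Prc1 at chr1:143659231-143659480 on the plus strand and Nusap1 at chr3:127057045-127057294 on the plus strand (RefSeq, GRCr8).
Top2a: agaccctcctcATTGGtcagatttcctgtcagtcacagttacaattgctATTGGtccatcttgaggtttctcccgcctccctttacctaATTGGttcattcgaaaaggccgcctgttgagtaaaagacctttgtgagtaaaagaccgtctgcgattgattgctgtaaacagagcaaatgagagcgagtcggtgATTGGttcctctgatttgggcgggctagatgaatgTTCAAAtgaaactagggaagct
Mki67: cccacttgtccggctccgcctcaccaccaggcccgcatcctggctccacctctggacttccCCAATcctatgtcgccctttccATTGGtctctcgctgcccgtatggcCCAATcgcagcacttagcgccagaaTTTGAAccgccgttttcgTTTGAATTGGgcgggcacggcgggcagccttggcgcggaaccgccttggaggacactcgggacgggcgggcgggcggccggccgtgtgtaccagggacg
Prc1: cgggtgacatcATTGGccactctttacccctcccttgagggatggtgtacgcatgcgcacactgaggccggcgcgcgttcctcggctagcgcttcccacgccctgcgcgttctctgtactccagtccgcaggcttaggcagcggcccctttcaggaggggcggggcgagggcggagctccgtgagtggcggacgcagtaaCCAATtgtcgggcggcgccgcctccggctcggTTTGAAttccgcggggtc
Nusap1: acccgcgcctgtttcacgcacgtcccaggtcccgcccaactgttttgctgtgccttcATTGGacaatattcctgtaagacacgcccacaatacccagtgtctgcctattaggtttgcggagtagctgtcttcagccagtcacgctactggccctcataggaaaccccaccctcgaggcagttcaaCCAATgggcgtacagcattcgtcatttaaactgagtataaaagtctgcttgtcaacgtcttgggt
The TTTGAA nearest the start begins 22 bases before it in Top2a, 99 in Mki67, where it overlaps a CCAAT read on the opposite strand, and 18 in Prc1. In Nusap1 it begins 10 bases after the start and is not printed. Over 300 bases and both strands, CCAAT was in 37.7% and TTTGAA in 18.1% of 27457 promoters. Of the 20 mitosis genes 15 matched the promoter table, under 80%, so no share over the list is given.

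The largest fall of all called genes was that of a neuropeptide. Ucn, which encodes urocortin, a ligand of the corticotropin-releasing hormone receptors, had 0.133 and 0.132 CPM at 6 M, against 4.54, 5.83 and 2.17 CPM at 1 M (-4.94 ± 0.64, adjusted p = 0.0269). Both 6 M values stand for 3 and 4 counts, near the floor, whereas every 1 M library was far above it. Ucn had 0.126 to 0.221 CPM at 3 M and at most 0.119 CPM in the controls, with 0 counts in 2 of the 3. Its log2 fold change ran from -5.26 to -2.46 over the alternatives. Calcb, a calcitonin gene-related peptide of sensory and motor neurons, had 3.58 and 1.98 CPM at 6 M, against 11.5, 9.30 and 9.53 CPM at 1 M (-1.88 ± 0.30, adjusted p = 0.0364). In the controls it had 10.1 to 13.1 CPM, in the range of 1 M. Its relative Calca had 22.4 and 7.34 CPM at 6 M, against 56.7, 60.0 and 50.1 CPM at 1 M, with an adjusted p of 0.0703. Of 14 spinal neuropeptide genes, Ucn and Calcb were the ones that fell, and the median was -0.73. Against the mean of 1 M, the median of this list was -0.27 in 6 M replicate 1 and -1.31 in 6 M replicate 2 (log2 of CPM plus 0.1). Without 6 M replicate 1, which leaves a single 6 M library, the median log2 fold change of the list was -1.33.

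The Ucn promoter is shown because it holds the full cyclic AMP response element TGACGTCA, in capitals, 110 bases before the start (RefSeq, GRCr8, chr6:30957836-30958085, plus strand). This element was found in 1.91% of 27457 promoters of 300 bases.
Ucn: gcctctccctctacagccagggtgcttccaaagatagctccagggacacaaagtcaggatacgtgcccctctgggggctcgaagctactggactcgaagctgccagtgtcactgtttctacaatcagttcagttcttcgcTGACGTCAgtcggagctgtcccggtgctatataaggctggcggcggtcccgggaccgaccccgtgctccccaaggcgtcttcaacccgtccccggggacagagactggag

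Secreted regulators of the WNT pathway moved in both directions, while no gene of the TGF-beta and BMP list fell. WNT ligands signal through beta-catenin or through cell polarity, and secreted antagonists such as sclerostin and the SFRP proteins hold them back. Sost, which encodes sclerostin, had 1.24 and 1.82 CPM at 6 M, against 9.41, 6.94 and 6.79 CPM at 1 M (-2.32 ± 0.29, adjusted p = 0.0261). The 3 M libraries had 5.62 to 6.22 CPM, and the controls had 0 counts in all 3. Of 30 WNT genes, Sost was the gene that fell, and Wnt6, Wnt5b, Wnt4 and Sfrp5 rose. Wnt6 had 57.8 and 91.1 CPM at 6 M, against 18.7, 21.6 and 17.1 CPM at 1 M (1.96 ± 0.21, adjusted p = 0.023). Wnt5b (1.23 ± 0.16), Wnt4 (1.07 ± 0.14) and the antagonist Sfrp5 (1.42 ± 0.19) had log2 fold changes over 1.

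Outside that list, Wnt16 rose (1.39 ± 0.18), and the R-spondins, which strengthen WNT signals at the receptor, went apart. Rspo2 had 12.3 and 17.5 CPM at 6 M, against 5.71, 6.64 and 6.14 CPM at 1 M (1.28 ± 0.21, adjusted p = 0.0376). Rspo1 had 5.66 and 7.70 CPM at 6 M, against 15.8, 14.7 and 14.5 CPM at 1 M (-1.16 ± 0.19, adjusted p = 0.0376). Of 30 TGF-beta and BMP genes, 5 rose and 0 fell, with a median of 0.24. They were the ligand Bmp7 (1.45 ± 0.26), the antagonist Chrd (0.97 ± 0.19), the coreceptor Tgfbr3 (0.79 ± 0.14), the signal transducer Smad9 (0.76 ± 0.14) and the target Id3 (0.75 ± 0.14). Bmp7 had 30.4 and 56.9 CPM at 6 M, against 15.9, 17.5 and 14.5 CPM at 1 M. The call was lost under 4 of the 17 alternatives for Bmp7, 5 for Id3, 6 for Tgfbr3, 8 for Chrd and 9 for Smad9. The antagonists Sostdc1 (1.71 ± 0.28) and Chrdl1 (1.70 ± 0.23) rose too. Sostdc1 had 18.6 and 30.3 CPM at 6 M, against 5.75, 8.86 and 8.06 CPM at 1 M.

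Genes of the meninges and of fibroblasts were the list with the most members that rose. The leptomeninges wrap the cord, transport organic ions and amino acids through carriers of the SLC families, and secrete prostaglandin D synthase and insulin-like growth factor 2 into the cerebrospinal fluid. Of 17 fibroblast and meningeal genes, 7 rose and 0 fell, and the median was 0.40. Ptgds, prostaglandin D synthase, had 10978 and 16069 CPM at 6 M, against 2917, 3061 and 2472 CPM at 1 M (2.26 ± 0.20, adjusted p = 0.023). The 3 M libraries had 9072 to 11187 CPM and the controls 6138 to 8491 CPM, so that the 1 M libraries were the ones set apart. Igf2 had 1478 and 2028 CPM at 6 M, against 358, 530 and 721 CPM at 1 M (1.71 ± 0.30, adjusted p = 0.0427). Here the controls, with 526 to 628 CPM, lay within the range of 1 M.

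The anion transporter Slc22a6 had 21.2 and 32.4 CPM at 6 M, against 8.34, 8.45 and 8.30 CPM at 1 M (1.68 ± 0.20, adjusted p = 0.0247). The GABA and betaine transporter Slc6a13 had 165 and 230 CPM at 6 M, against 63.4, 75.8 and 76.2 CPM at 1 M (1.46 ± 0.17, adjusted p = 0.0247). Aldh1a2, which makes retinoic acid, had 200 and 254 CPM at 6 M, against 70.2, 86.5 and 96.5 CPM at 1 M (1.43 ± 0.17, adjusted p = 0.0247). In each of these 3 genes both 6 M libraries were more than 2-fold above the highest 1 M library. Igfbp2, which binds IGF proteins (1.01 ± 0.15), and Fbln1, a glycoprotein of elastic fibres (0.84 ± 0.13), rose by less. Outside the list, the tight junction gene Cldn1 (1.45 ± 0.26), the cadherin Cdh1 (1.53 ± 0.29) and the connexin Gjb2 (1.19 ± 0.21) rose. Itgb4, an integrin of hemidesmosomes, had 462 and 733 CPM at 6 M, against 209, 259 and 253 CPM at 1 M (1.31 ± 0.21, adjusted p = 0.0384). The axon repellent Sema3b (1.28 ± 0.17) rose among 28 axon guidance genes together with Efnb3 (0.83 ± 0.16). Their calls were lost under 2 and 7 of the 17 alternatives.

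**Figure D3:**
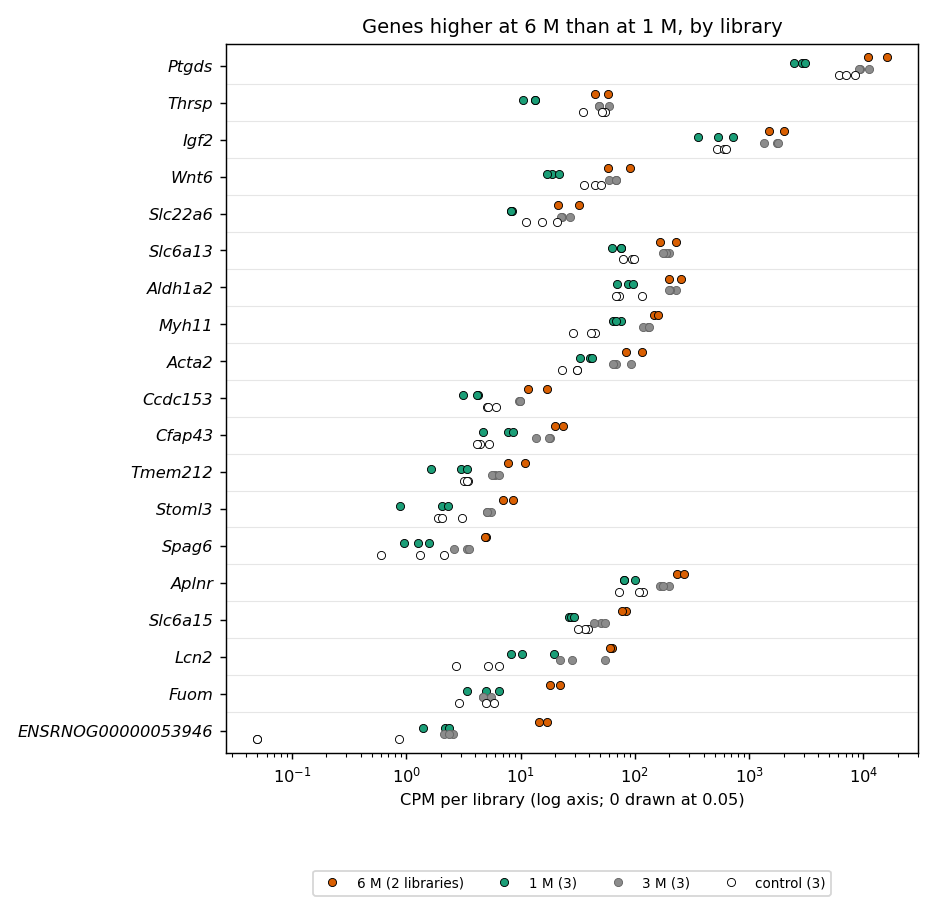
CPM in each library (log axis, 0 drawn at 0.05) of genes that were higher at 6 M, with 6 M in orange, 1 M in green, 3 M in grey and control in white. In Ptgds and Thrsp the green points lie left of all other groups, whereas in Fuom and ENSRNOG00000053946 the orange points lie right of all other groups.

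Mural cells of vessels contract through smooth muscle actin and myosin. Of 14 pericyte and smooth muscle genes, 4 rose and 0 fell, with a median of 0.42. Myh11, the smooth muscle myosin heavy chain, had 146 and 159 CPM at 6 M, against 64.3, 75.0 and 68.1 CPM at 1 M (1.14 ± 0.11, adjusted p = 0.023). Acta2, smooth muscle actin, had 83.7 and 115 CPM at 6 M, against 40.5, 42.6 and 33.2 CPM at 1 M (1.36 ± 0.17, adjusted p = 0.0269). Vtn, vitronectin (1.48 ± 0.18), and Des, the intermediate filament desmin (1.09 ± 0.21), rose with them. Pdgfrb, the receptor that defines pericytes, overlapped between the groups, with 90.6 and 110 CPM at 6 M and 79.3 to 91.9 CPM at 1 M. None of 19 endothelial and barrier genes and none of 14 basement membrane genes passed the test in edgeR. Only 18 of the 19 had any counts in the 5 libraries, and a gene without counts could not pass. In edgeR 5 of each list were higher at an unadjusted p under 0.05, and DESeq2 called 1 and 3 higher (11.6% and 6.02% of all tested genes were higher by these measures). Aplnr, the apelin receptor, rose to 233 and 267 CPM at 6 M, against 81.2, 80.4 and 101 CPM at 1 M (1.52 ± 0.14, adjusted p = 0.023). Of 17 matrix protease and inhibitor genes, the plasminogen activator Plau (-1.40 ± 0.19) and its receptor Plaur (-1.17 ± 0.22) fell.

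Ependymal cells carry motile cilia on their free surface. Of 16 ependymal and motile cilia genes tested, 5 rose and 0 fell, all 16 had a log2 fold change above 0, and the median of 1.11 was the highest of the 66 lists. DESeq2 called 11 of them higher. Ccdc153 had 11.5 and 17.0 CPM at 6 M, against 3.11, 4.24 and 4.17 CPM at 1 M (1.90 ± 0.25, adjusted p = 0.0273). Cfap43, an axonemal protein, had 20.2 and 23.5 CPM at 6 M, against 4.68, 7.71 and 8.59 CPM at 1 M (1.66 ± 0.27, adjusted p = 0.0387). Both groups were clear of each other in both genes, and 1 M replicate 1 was the lowest library in each. Tmem212 (1.83 ± 0.35), Cfap126 (1.48 ± 0.27) and the dynein light chain Dnali1 (1.18 ± 0.19) also rose. Outside the list, the axonemal gene Spag6 had 4.96 and 4.92 CPM at 6 M, against 0.949, 1.59 and 1.27 CPM at 1 M (1.98 ± 0.29, adjusted p = 0.0316). Stoml3 (2.19 ± 0.41), Fam183b (2.02 ± 0.22) and the regulator of G protein signalling Rgs22 (1.26 ± 0.12) rose as well. The summed level of the 16 genes was 242 and 285 CPM at 6 M, 122 to 164 CPM at 1 M, 201 to 223 CPM at 3 M and 124 to 131 CPM in the controls.

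Astrocyte genes moved in some members only. Of 16 homeostatic astrocyte genes, Aldh1l1, an enzyme of folate metabolism used as a pan-astrocyte marker, had 138 and 158 CPM at 6 M, against 66.9, 79.2 and 84.0 CPM at 1 M (0.95 ± 0.14, adjusted p = 0.0316). The astrocyte connexin Gjb6 rose too (0.94 ± 0.16), and the median of the list was -0.03. Gfap, the intermediate filament of astrocytes, had 17914 and 19911 CPM at 6 M and 13031 to 16100 CPM at 1 M (0.38 ± 0.15, adjusted p = 0.209). Among 16 reactive astrocyte genes, Lcn2 rose and Tnc, the matrix glycoprotein tenascin C, fell to 19.2 and 28.2 CPM at 6 M, against 57.0, 43.9 and 58.4 CPM at 1 M (-1.16 ± 0.21, adjusted p = 0.0459). The chondroitin sulfate proteoglycans Ncan (-0.91 ± 0.16) and Vcan (-0.75 ± 0.14), which inhibit axon growth, fell with Tnc among 15 proteoglycan and perineuronal net genes. Ncan had 95.3 and 97.0 CPM at 6 M, against 153, 180 and 210 CPM at 1 M, and 24.2 to 56.1 CPM in the controls. The call was lost under 6 of the 17 alternatives for Tnc and for Vcan, and under 7 for Ncan.

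Few central myelin genes passed the test. Of 21 central myelin genes, Aspa rose (0.57 ± 0.10) and Enpp6, a marker of oligodendrocytes that are newly formed, fell (-0.57 ± 0.11). Both calls were lost under 7 of the 17 alternatives. The summed level of the list was 42812 and 41750 CPM at 6 M, against 45991, 43404 and 46110 CPM at 1 M, and 98951 to 105223 CPM in the controls. Mbp, myelin basic protein, had 21852 and 22455 CPM at 6 M and 23059 to 26057 CPM at 1 M (adjusted p = 0.591). Of 11 oligodendrocyte precursor genes, Vcan and the transcription factor Nkx2-2 (-0.68 ± 0.13) fell, and the call of Nkx2-2 was lost under 7 of the 17 alternatives. Of 14 peripheral myelin genes, the Schwann cell cadherin Cdh19 rose to 40.1 and 38.8 CPM at 6 M, against 14.2, 18.8 and 19.8 CPM at 1 M (1.17 ± 0.17, adjusted p = 0.0322). Mlip rose as well (1.38 ± 0.27), the median was 0.80, and DESeq2 called 9 of the 14 higher.

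**Figure D4:**
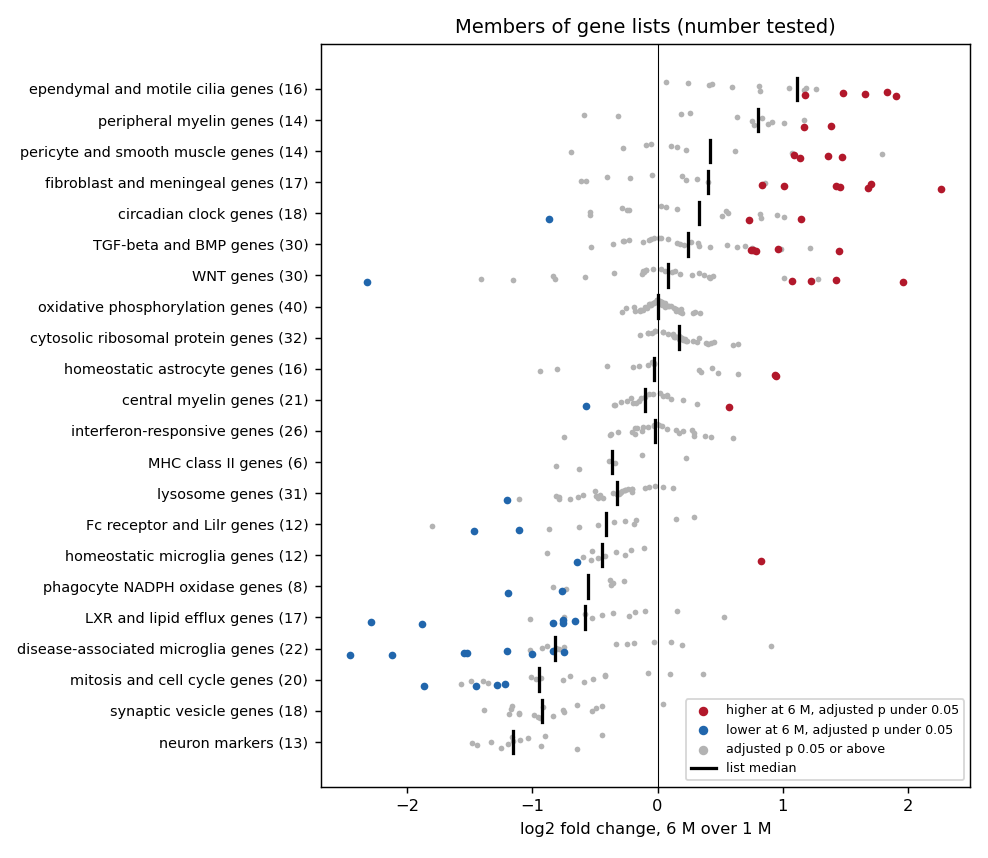
Log2 fold change of 6 M over 1 M (x axis) of each tested member of 22 gene lists (rows, number tested in brackets), in red where higher, in blue where lower and in grey where the adjusted p was 0.05 or above, with the list median as a bar. Cilia and peripheral myelin genes have their medians at 1.11 and 0.80, and mitosis, synaptic vesicle and neuron genes at -0.95, -0.93 and -1.16.

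Motor neuron genes and neuron markers had the lowest medians of the 66 lists, but no member of 6 neuronal lists passed the test in edgeR with all 5 libraries. The median was -1.16 for 13 neuron markers, -1.17 for 5 motor neuron genes, -0.93 for 18 synaptic vesicle genes, -0.89 for 11 excitatory transmission genes, -0.79 for 11 inhibitory transmission genes and -0.64 for 19 neuronal ion channels. At an unadjusted p under 0.05, 8, 3, 8, 5, 1 and 3 of them were lower, and DESeq2 called 4, 3, 7, 4, 0 and 2 lower. Without 6 M replicate 1, edgeR called 10, 5, 14, 7, 7 and 7 of them lower, against 3.91% of all tested genes. That fit compares the single pool of 6 M replicate 2 with 1 M, and its list medians were -2.17, -2.15, -1.52, -1.89, -2.23 and -1.09. Without 6 M replicate 2, where no tested gene was called, the medians were -0.59, -0.55, -0.42, -0.28, -0.16 and -0.38. With a single 6 M library left, neither fit can decide whether these genes fell. The fit with the 3 M libraries called 2, 2, 2, 0, 0 and 2 lower (4.78% of all tested genes), and the replicate number as a block 3, 0, 1, 0, 0 and 1 (1.73%). The 6 M libraries differed from each other in these genes. Snap25, a SNARE protein of synaptic vesicle release, had 455 and 98.5 CPM at 6 M, against 696, 581 and 578 CPM at 1 M (-1.16 ± 0.57, adjusted p = 0.294). Nefh, the heavy neurofilament chain, had 388 and 84.3 CPM at 6 M, against 752, 631 and 589 CPM at 1 M (-1.48 ± 0.57, adjusted p = 0.207). Slc6a5, the glycine transporter of inhibitory terminals, had 44.7 and 8.53 CPM at 6 M, against 65.2, 52.9 and 67.3 CPM at 1 M (adjusted p = 0.296). In each of these genes 6 M replicate 1 was below the 1 M range and 6 M replicate 2 lower again by more than 4-fold.

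Against the mean of 1 M, the median of the neuron markers was -0.55 in 6 M replicate 1 and -2.16 in 6 M replicate 2 on the log2 scale of CPM plus 0.1, while the median over all tested genes was 0.01 and 0.00. Their summed level was 3210 and 1047 CPM at 6 M, 4577 to 5475 CPM at 1 M, 2108 to 2565 CPM at 3 M and 10549 to 14354 CPM in the controls. Erythroid genes moved the other way, with a median of -0.89 in 6 M replicate 1 and 0.24 in 6 M replicate 2 and a summed level of 788 and 1914 CPM. Fibroblast and meningeal genes had a median of 0.27 and 0.55, and Ptgds 10978 and 16069 CPM, in these libraries. What part such differences between the pools have in the neuronal values was not tested. In the disease-associated microglia genes the medians were -0.94 and -0.66, in the mitosis and cell cycle genes -0.69 and -0.97, and in the cilia genes 0.83 and 1.18. These lists had the same direction in both pools, as the neuron markers did, but the pools lay closer together in them.

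**Figure D5:**
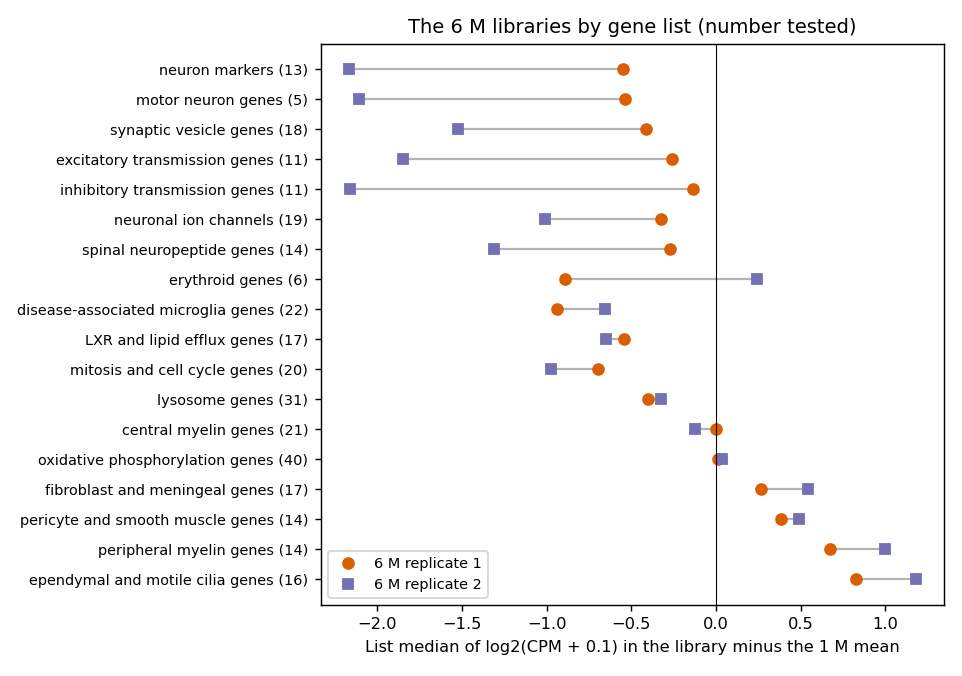
Median of gene lists in 6 M replicate 1 (circles) and 6 M replicate 2 (squares) relative to the mean of the 1 M libraries (x axis, log2 of CPM plus 0.1). Neuronal lists are spread widely between the libraries, with -0.55 and -2.16 for neuron markers, while oxidative phosphorylation genes lie near 0 in both.

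Of 18 circadian clock genes, Dbp and Nr1d2 rose and Npas2 fell. Dbp, a clock-controlled transcription factor, had 215 and 230 CPM at 6 M, against 120, 109 and 72.4 CPM at 1 M (1.15 ± 0.21, adjusted p = 0.0433). Nr1d2, the repressor REV-ERB beta, had 136 and 125 CPM at 6 M, against 80.5, 75.8 and 78.9 CPM at 1 M (0.73 ± 0.10, adjusted p = 0.0269). Npas2, which such repressors act on, had 20.0 and 18.2 CPM at 6 M, against 35, 37.7 and 32.2 CPM at 1 M (-0.87 ± 0.13, adjusted p = 0.0327). For Nr1d2 and Npas2, the 3 M libraries (86.3 to 96.5 and 29.5 to 34.3 CPM) and the controls (74.5 to 80.0 and 25 to 31.3 CPM) were all outside the range of 6 M. Per3 (0.82 ± 0.16, adjusted p = 0.0526) and Per2 (1.01 ± 0.23, adjusted p = 0.075) did not pass. The hour of tissue collection is not given in the sources used here.

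Genes that handle oxidants and xenobiotics, which were in none of the lists and were picked after their values were seen, included several that rose. Gpx3, the secreted glutathione peroxidase, had 366 and 497 CPM at 6 M, against 185, 174 and 103 CPM at 1 M (1.49 ± 0.26, adjusted p = 0.0427). Nqo1, a quinone reductase, had 134 and 149 CPM at 6 M, against 95.4, 87.7 and 97.6 CPM at 1 M (0.60 ± 0.11, adjusted p = 0.0427). The glutathione transferases Gstm1 (1.03 ± 0.13), Gstm7 (0.95 ± 0.12) and Gsta4 (0.84 ± 0.16) rose as well, though genes of this family are alike in sequence and reads may have been split between them. The call was lost under 9 of the 17 alternatives for Gsta4 and under 2 for each of Gstm1 and Gstm7. Other abundant genes that rose were Pla2g7, which hydrolyses platelet-activating factor (0.95 ± 0.11), Txnip, the inhibitor of thioredoxin (0.97 ± 0.13), Lcat, which esterifies cholesterol in lipoproteins (1.01 ± 0.12), Ahnak (0.97 ± 0.17) and Laptm4a (0.92 ± 0.15). Among abundant genes that fell were Sulf2, which removes sulfates from heparan sulfate (-0.76 ± 0.11), Sema7a, a membrane-anchored semaphorin (-0.67 ± 0.12), and Ubl7 (-1.21 ± 0.13).

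Some genes had small p-values or large changes and belong to none of these groups. Slc6a15, a transporter of branched-chain amino acids and proline, had 83.6 and 76.7 CPM at 6 M, against 26.8, 27.6 and 29.5 CPM at 1 M (1.52 ± 0.11, adjusted p = 0.0175). Thrsp, a regulator of lipogenesis, had 45.1 and 58.0 CPM at 6 M, against 13.4, 10.6 and 13.3 CPM at 1 M (2.05 ± 0.17, adjusted p = 0.023). Its 3 M libraries (48.2 to 59.1 CPM) and controls (35.3 to 54.4 CPM) were all above 1 M. The dicarboxylate transporter Slc13a3 (0.99 ± 0.09) and the mitochondrial glutamate carrier Slc25a18 (0.95 ± 0.09) rose with small errors. RGD1305645 (1.91 ± 0.16) and the elastase family gene Cela3b (1.87 ± 0.18) rose, and Cela1 of the same family fell (-2.37 ± 0.41). Grxcr1 (-1.28 ± 0.13), Alpk3, an alpha-kinase (-1.38 ± 0.14), and Adcy4, an adenylyl cyclase (-1.06 ± 0.11), fell. Among the genes with the highest log2 fold changes, Igfbpl1 had 2.30 and 3.77 CPM at 6 M, against 0.525, 0.590 and 0.286 CPM at 1 M (2.67 ± 0.40), and the placental-type alkaline phosphatase gene Alppl2 had 5.62 and 8.26 CPM at 6 M, against 1.19, 1.33 and 0.941 CPM at 1 M (2.58 ± 0.28). Defb1, a beta-defensin (2.35 ± 0.43), the cystine transporter subunit Slc7a9 (2.06 ± 0.29), Glipr1l1 (2.26 ± 0.38), LOC680885 (2.34 ± 0.42), RGD1565611 (2.34 ± 0.33) and LOC100911516 (2.67 ± 0.43) rose at levels under 6 CPM.

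In a few genes the 6 M libraries stood apart from every other group. ENSRNOG00000053946, a lncRNA, had 14.6 and 17.1 CPM at 6 M, against 1.41, 2.18 and 2.37 CPM at 1 M (3.02 ± 0.27, adjusted p = 0.023), and 2.14 to 2.56 CPM at 3 M. Fuom, fucose mutarotase, had 18.3 and 22.1 CPM at 6 M, against 3.39, 5.02 and 6.50 CPM at 1 M (2.04 ± 0.28, adjusted p = 0.0289), and 4.67 to 5.49 CPM at 3 M. Tcf23, a helix-loop-helix factor, had 11.8 and 9.52 CPM at 6 M, against 2.97, 2.73 and 2.66 CPM at 1 M (1.93 ± 0.20, adjusted p = 0.023), and 2.28 to 2.73 CPM at 3 M. The controls had at most 0.859, 5.84 and 3.58 CPM of these genes. These 3 were chosen after their values were seen, and both 6 M libraries share a batch that holds no other library analysed here.

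Of 904 lncRNAs, 14 rose (1.55%) and 4 fell (0.442%). The highest log2 fold change was that of LOC103694442, with 1.59 and 3.73 CPM at 6 M, against 0.424, 0.369 and 0.123 CPM at 1 M (3.05 ± 0.55, adjusted p = 0.044). LOC103693417 was one of the more abundant, with 40.6 and 36.3 CPM at 6 M, against 15, 17.4 and 16.4 CPM at 1 M (1.24 ± 0.13, adjusted p = 0.023). LOC103694060 (2.44 ± 0.38), LOC102550957 (1.73 ± 0.19), LOC102547969 (1.5 ± 0.24), LOC103694129 (1.35 ± 0.24) and LOC102553942 (1.32 ± 0.23) rose as well. The 4 that fell were LOC102551701 (-2.73 ± 0.43), LOC103691483 (-2.68 ± 0.41), LOC102546557 (-2.66 ± 0.40) and LOC102554575 (-1.10 ± 0.16). LOC102551701 had 1.19 and 0.430 CPM at 6 M, against 5.81, 5.28 and 4.58 CPM at 1 M, and 0.477 to 0.859 CPM in the controls. LOC102554575 had 20.7 and 18.8 CPM at 6 M, against 40.6, 36.9 and 49.6 CPM at 1 M, and at most 2.16 CPM in the controls. No function is given here for any of these lncRNAs.

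Over all 66 gene lists, 84 of 1018 tested genes were called, 42 in each direction, and 28 lists held no call. Single members that rose were Ajuba of the YAP and TEAD genes (1.10 ± 0.20), Hoxc5 of the Hox genes (1.13 ± 0.22), the small heat shock protein gene Hspb8 (1.07 ± 0.14) and Cntf, ciliary neurotrophic factor (0.67 ± 0.13). The call was lost under 4 of the 17 alternatives for Ajuba, 8 for Hoxc5, 2 for Hspb8 and 9 for Cntf. Single members that fell were Car2, carbonic anhydrase 2 (-0.97 ± 0.17), and the inhibitory receptor Cd300a (-1.11 ± 0.15). Of 13 YAP and TEAD genes, 12 had a log2 fold change above 0 and 7 were higher at an unadjusted p under 0.05 (11.6% of all tested genes). DESeq2 called 5 of them higher (6.02% of all tested genes). The 445 genes of the 28 lists without a call had 37 higher (8.31%) and 63 lower (14.2%) at an unadjusted p under 0.05, against 11.6% and 9.88% of all tested genes. Among them, 40 oxidative phosphorylation genes had a median of 0.00, 32 cytosolic ribosomal protein genes 0.17, 31 RNA splicing genes 0.03 and 26 interferon-responsive genes -0.02. DESeq2 called 0 oxidative phosphorylation genes, 1 cytosolic ribosomal protein gene, 0 RNA splicing genes and 0 interferon-responsive genes. Of 6 MHC class II genes, Cd74, the invariant chain, had 273 and 259 CPM at 6 M and 336 to 529 CPM at 1 M (adjusted p = 0.164). Of the lists of tissues other than the cord itself, those of fibroblast and meningeal genes (17 of 19 listed genes tested) and peripheral myelin genes (14 of 15) were nearly full. Others were sparse, with 7 of 16 listed skeletal muscle genes and 3 of 11 dorsal root ganglion genes tested. Their summed level was 49.0 and 23.8 CPM at 6 M and 38.0 to 59.7 CPM at 1 M for muscle, and 39.3 and 20.8 CPM at 6 M and 66.4 to 72.8 CPM at 1 M for ganglion. Lists of the labelled tissue were measured to different degrees. Of the central myelin genes 21 of 21 were tested, of the homeostatic astrocyte genes 16 of 16 and of the neuron markers 13 of 14. Less full were the ependymal and motile cilia genes with 16 of 24 and the motor neuron genes with 5 of 9. The count table held 0 counts in all 5 libraries for 55 tested genes, the endothelial tight junction gene Cldn5 among them, so these have no level here.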

How the data were processed

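The tables list 22075 protein-coding genes and 8368 lncRNAs, and were used for 5 libraries (2 of 6 M, 3 of 1 M), with 6 further libraries for orientation. Each held RNA of 3 rats, so p-values measure the spread between pools. The authors sequenced poly-A selected paired-end libraries, aligned reads to Rnor6 with TopHat2 2.1.0 and made the deposited counts, raw and not normalized, with HTSeq. The sources used here do not give its version or strand setting. Overlapping, antisense or near-identical genes may therefore share or lose reads, and 330 gene names that stand for more than 1 gene were not used. The deposited FPKM were estimated by the authors with Cufflinks 2.2.1, and values below 0.1 were set to 0.1 (41.8% of the values). The submitters' processing notes also name CASAVA 1.7. The total of 1 M replicate 1 exceeds its read pairs, so its counting error may be understated.

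Genes whose FPKM passed 1 in any of the 5 libraries were tested with edgeR 4.0.16 in R 4.3.3 (TMM, robust quasi-likelihood test, condition as the only term), adjusted by Benjamini-Hochberg over 14408 genes. The SE was computed as absolute log2 fold change over the root of F. The limits for a DEG were an adjusted p of 0.01 and a 2-fold change, and for a single gene an adjusted p of 0.05. Printed CPM were scaled by TMM over the 11 libraries. In simulated counts for this comparison over 14408 genes, 71 of 100 genes changed 2-fold, 100 of 100 changed 4-fold and 8 of 14208 unchanged genes were called. The changed genes were drawn from those above a minimum mean count, the spread was the fitted trend, and no batch was simulated. Of the changed genes 42 and 99 were DEGs, against 0 DEGs in the data, so these rates may not hold for the data.

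The members and the 66 gene lists were chosen with earlier results of these data known. Named are list members and the 15 genes highest and the 15 lowest in log2 fold change among DEGs without overlap, the 10 of smallest p and the 10 of largest level in each direction, and the 8 highest and 8 lowest lncRNAs. Since no gene was a DEG, these sizes were applied to genes with an adjusted p under 0.05, which was decided after the values were seen, as were the other genes named outside the lists. Alternatives were other scalings (DESeq2's size factors, total counts, upper quartiles), DESeq2 1.42.0, limma 3.58.1 on log2(FPKM + 1) and log2(FPKM + 0.1), no filter, filterByExpr, fits with 8 or 11 libraries, the replicate number as a block, 1 M replicate 1 halved, and each library left out. Promoters came from RefSeq (GRCr8), matched by symbol for 9855 of the tested genes. A few genes that these rules name are left out of the text.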

Additional observations from a re-analysis of the deposited data

How the results depend on the processing

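Against 0 DEGs, the Wald test of DESeq2 gave 442, limma 1 with either pseudocount, no filter 172, the fit with the 8 injured libraries 239, that with all 11 libraries 275, the replicate number as a block 38, and an adjusted p under 0.05 with no fold threshold 473. It stayed 0 with each library left out in turn. For the 292 genes that rose, DESeq2 gave 867, no filter 510, the 8 injured libraries 1023 and the 11 libraries 912, and libraries left out in turn 0 to 400. For the 181 genes that fell, the same settings gave 756, 332, 688 and 597, and 0 to 564. The 18 lncRNAs became 68, 46, 80 and 78 under these settings, 35 with limma on log2(FPKM + 1) and 30 on log2(FPKM + 0.1), and 0 to 47 with libraries left out. The 84 calls in the gene lists became 236, 136, 212 and 194, and 0 to 139. Other scalings and filterByExpr stayed within 1.5 times of each of these counts.

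The counts of 0 come from leaving out 1 M replicate 2 or 6 M replicate 2. With a single 6 M library left, its spread is assumed to be that of 1 M. Without 1 M replicate 3, which leaves 1 batch per group, 295 of the 473 genes kept their call. Of the called genes, 61.7% were higher at 6 M, and 41.5% without 6 M replicate 1 and 53.4% by DESeq2. In the block fit 1 M replicate 3 has no partner and carries no weight, and it gave 315 genes higher and 249 lower, 327 of the 473 among them, and 113 calls in the lists. The deviations of same-numbered libraries from their group means correlated at -0.156 and 0.0776 across genes, so the samples share only a number. No called gene reversed under any alternative, which was likely from the start because the groups overlapped in none of them. Depth limits genes near 3 counts, such as Ucn at 6 M.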
